A study of Danio rerio with 7 samples.

Results

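The genes described here are 10 targets of MAPK signaling that feed back on the pathway or carry its output: the dual-specificity phosphatases *dusp4*, *dusp5* and *dusp6*, the Sprouty genes *spry1*, *spry2* and *spry4*, the Sprouty relative *spred1*, and the ETS transcription factors *etv4*, *etv5a* and *etv5b*. They were chosen by name, and all 10 were found among the 20402 genes of the sorted cell table and among the 20141 genes of the single-cell table. In the kinase cascade from RAS through RAF and MEK to ERK, active ERK switches on genes whose products shut the cascade down again. DUSPs remove the activating phosphates from ERK, Sprouty and SPRED proteins damp the signal at the level of the receptor, RAS and RAF, and the ETV4 and ETV5 factors carry it into transcription. A BRAF oncogene holds this cascade on, and the level of these transcripts is commonly read as a measure of ERK output in melanoma.

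The tumors were raised by TEAZ, in which plasmids are electroporated into the skin of adult fish (3 to 6 months old), here below the dorsal fin. All hosts were *casper* zebrafish (*mpv17*-/- and *mitfa*-/-) that lacked p53 (*p53*-/-) and carried human BRAF V600E under the *mitfa* promoter, so the oncogene is driven in the pigment cell lineage. All received a plasmid that returns *mitfa* together with tdTomato (MinicoopR-tdT), Cas9 under the *mitfa* promoter and guides against *ptena* and *ptenb*. The sgDGAT1a tumors got a further guide against *dgat1a*, an enzyme of triglyceride synthesis, and the sgNT tumors a non-targeting guide in its place. Cells positive for tdTomato were sorted from each, giving 3 sgDGAT1a and 3 sgNT libraries; the CRISPR tumors are mosaic, and the labels do not say whether a library is 1 fish. A single droplet library held tumor and adjacent tissue of 6 fish, 3 months after TEAZ and without either of these further guides, whose 3968 cells the authors annotated as melanocytic (579), stressed (853), proliferative (333), invasive (333) or inflammatory (580) melanoma and as tumor microenvironment (TME, 1290).

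The sorted libraries are given as normalized counts, which total 19183895 to 23287404 per library; the read depth behind them is unknown. *dgat1a* had 216, 231 and 240 normalized counts in sgDGAT1a libraries 1 to 3, against 799, 747 and 405 in sgNT libraries 1 to 3, a log2 fold change of -1.44 (limma adjusted p = 0.0265). With sgDGAT1a 1, sgDGAT1a 2, sgNT 1 or sgNT 2 left out that adjusted p was 0.0974 to 0.114, which ends the call. Libraries 1 and 2 of each group were more alike (correlation across genes 0.963 and 0.962) than either was to library 3 (0.887 to 0.903), and sgNT 3 correlated with sgDGAT1a 1 at 0.885; nothing in the labels says why. Markers of skin and muscle were detected in the sorted cells of both groups and were higher in sgDGAT1a. All 7 keratinocyte markers tested, 5 of 5 fibroblast markers and 5 of 5 skeletal muscle markers passed the thresholds given next. The keratinocyte markers summed to 243017, 166180 and 249425 normalized counts in sgDGAT1a against 13683, 15984 and 86629 in sgNT. The fibroblast markers summed to 134693, 133177 and 99097 against 23080, 22611 and 28024, and the muscle markers to 37364, 43254 and 13998 against 443, 567 and 2806. Macrophage markers, with 1 of 8 called higher, summed to 111043, 120810 and 90637 against 76070, 86284 and 87263. Melanoma markers, also with 1 of 10 called higher, summed to 147584, 147128 and 549362 against 135461, 137581 and 231200. In the sgDGAT1a libraries, though not in the sgNT libraries, most of that sum was *pmela* and *tyrp1b*. By contrast, *mitfa* (log2 fold change -0.86), *sox10* (-0.88) and *crestin* (-0.91) were lower in every sgDGAT1a library than in any sgNT library. Of these, *sox10* had a limma adjusted p below 0.05 (0.0381) within the 2-fold limit. Endothelial markers (2 of 4 called higher), erythrocyte markers (2 of 5), T cell markers (1 of 5) and neutrophil markers (1 of 4) were also called in part. The 4 Schwann cell markers had a median log2 fold change of 2.25 with 0 called by limma and 4 at an unadjusted p below 0.05. Of the 16969 genes tested, 3249 were higher at that unadjusted p. The part that other cell types have in the differences below was not tested, and in sorted pools more cells of a type and more RNA per cell cannot be told apart.

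The first comparison asked whether ERK output differed between sgDGAT1a and sgNT tumor cells. The feedback genes did not move together. *dusp5* was 2.56-fold higher in sgDGAT1a and *dusp6* 1.87-fold higher, *dusp4* and *etv5b* lay lower without passing the test, and the Sprouty genes and *etv4* and *etv5a* overlapped between the groups. Values were compared with limma on the log2(normalized count + 1) scale, with adjustment over the 16969 genes that averaged 10 or more. A gene was called at an adjusted p below 0.05 and a change of more than 2-fold. Of the 10 feedback genes 1 was called higher and 0 lower, where 8.70% of all genes tested were called higher and 3.31% lower. The split of all calls was 72.5% higher, and 60.6% higher with quantile normalization. At an unadjusted limma p below 0.05 there were 2 feedback genes higher and 2 lower. Of all 16969 genes tested, 3249 were higher and 2172 lower at that p. The count of 1 was 0 without sgDGAT1a 1, without sgDGAT1a 2 or without sgNT 1, 3 without sgDGAT1a 3 and 2 without sgNT 3. Calls over all genes went from 2038 to 262, 108, 406, 1591 and 4225 in these same fits, in this order. With the fold left aside 2 were higher and 0 lower, against 8.93% and 4.23% of all genes. In 3 genes all sgDGAT1a libraries lay above all sgNT libraries and in 1 below, which held for 21.1% and 15.9% of all genes. The median log2 fold change of the 10 was -0.15 against 0.02 over all genes. Of the 10, 4 were positive, against 8656 of the 16969 genes tested. Summed, the 10 genes had 36489, 35089 and 34311 normalized counts in sgDGAT1a against 30534, 29580 and 32121 in sgNT. That sum weights genes by their level and does not describe the set. Its largest gains were in *dusp6* (mean 9699 in sgDGAT1a against 5139 in sgNT) and *dusp5* (4900 against 1900). The largest loss was in *dusp4* (1992 against 3638).

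**Figure D1:**
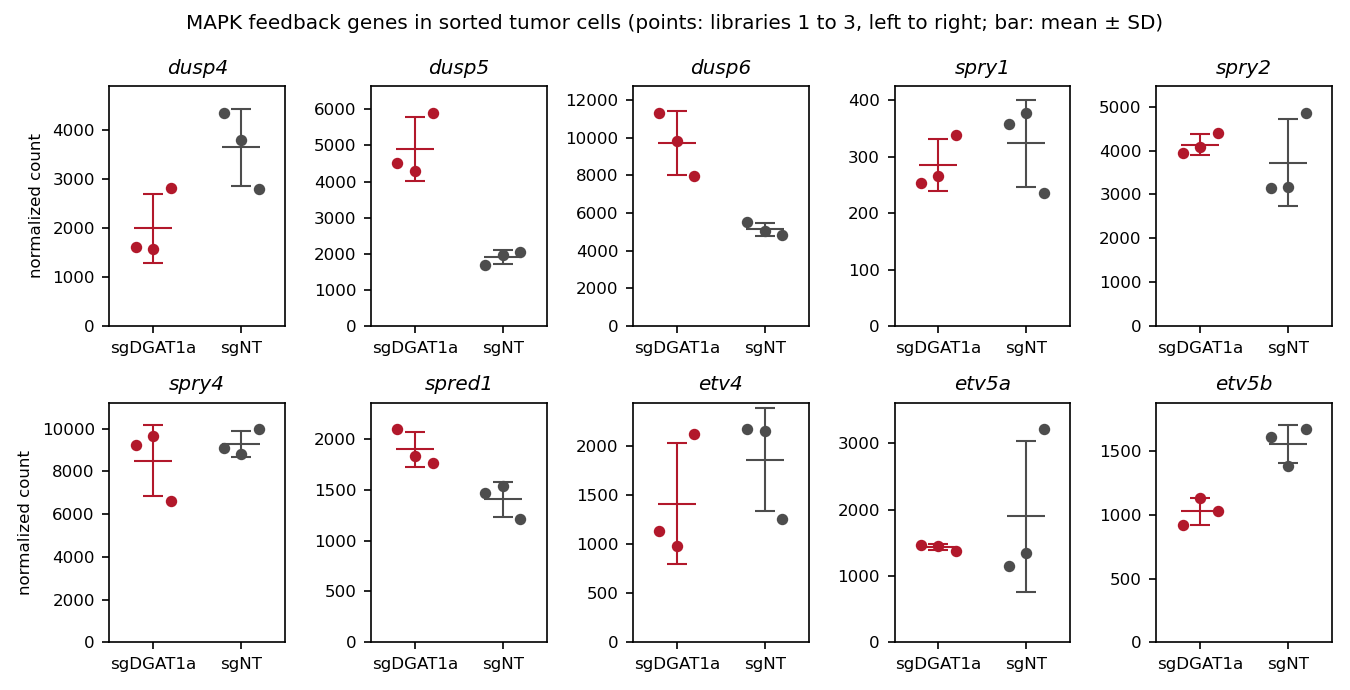
Normalized count (vertical axes, from 0) of each feedback gene in the 3 sgDGAT1a (red, left) and 3 sgNT libraries (grey, right), with library 1, 2 and 3 from left to right in each group and bars at the mean ± SD. The groups are apart for *dusp5*, *dusp6*, *spred1* and *etv5b*, and in *dusp4*, *spry1*, *etv4* and *etv5a* library 3 of a group lies apart from libraries 1 and 2.

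*dusp5* encodes a nuclear phosphatase that in mammals acts on ERK and holds it in the nucleus. It had 4511, 4282 and 5908 normalized counts in sgDGAT1a, against 1684, 1960 and 2056 in sgNT. Every sgDGAT1a library lay at more than 2 times the highest sgNT library, and the spread within groups was small beside the gap. The log2 fold change was 1.36 (SE 0.21, 95% interval 0.87 to 1.84, limma adjusted p = 0.0108). Leaving out a library kept the log2 fold change between 1.21 and 1.45. The adjusted p then came to 0.0514 without sgDGAT1a 1, 0.0567 without sgDGAT1a 2 and 0.0566 without sgNT 1, which ends the call. The keratinocyte, fibroblast and muscle markers given above were also higher in sgDGAT1a. Within sgDGAT1a, library 3 had the most *dusp5* and the highest keratinocyte sum (249425), but the lowest fibroblast (99097), muscle (13998) and macrophage (90637) sums. Within sgNT the keratinocyte sums were 13683, 15984 and 86629 in libraries 1 to 3, where *dusp5* was at 1684, 1960 and 2056. In the single-cell library *dusp5* was also 8.04-fold higher in TME than in melanoma cells, as described below. Among the TME marker sets there, the macrophage set averaged the most *dusp5* (2.59), and macrophage markers had 1 of 8 called higher in sgDGAT1a. The part of these cell types in the *dusp5* change was not tested.

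*dusp6*, the cytoplasmic phosphatase most selective for ERK, had 11329, 9827 and 7942 normalized counts in sgDGAT1a, against 5512, 5063 and 4842 in sgNT. Its groups did not overlap, and the highest value lay in sgDGAT1a 1 and the lowest in sgNT 3. The log2 fold change of 0.90 (SE 0.21, 95% interval 0.41 to 1.39) had a limma adjusted p of 0.0321 and stayed under the 2-fold limit. Without sgDGAT1a 1, sgDGAT1a 2, sgNT 1 or sgNT 2 the adjusted p was 0.136, 0.130, 0.111 and 0.113. In the single cells its level in TME and melanoma, each taken whole, was nearly equal (0.698 and 0.710 corrected counts per cell). In the TME marker sets described below it was 0.861 in keratinocyte, 0.825 in fibroblast and 0.634 in macrophage cells. Melanoma cells of the same depth averaged 0.730. The muscle set held 4 cells and was given no level. The part of these cell types in the *dusp6* change was not tested.

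*dusp4*, whose nuclear product acts on ERK and on the stress kinases, had 1615, 1558 and 2802 normalized counts in sgDGAT1a, against 4345, 3779 and 2790 in sgNT. Libraries 1 and 2 of the groups were well apart, and library 3 had nearly the same value in both. The log2 fold change was -0.90 (95% interval -1.57 to -0.23, limma adjusted p = 0.0752), and it passed the threshold without sgDGAT1a 3 (-1.17, adjusted p = 0.0344) and without sgNT 3 (-1.08, adjusted p = 0.0262). The log2 fold change of *dusp4* thus had the opposite sign to those of *dusp5* and *dusp6*. That difference came from libraries 1 and 2, and *dusp4* did not pass the test with all libraries in.

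**Figure D2:**
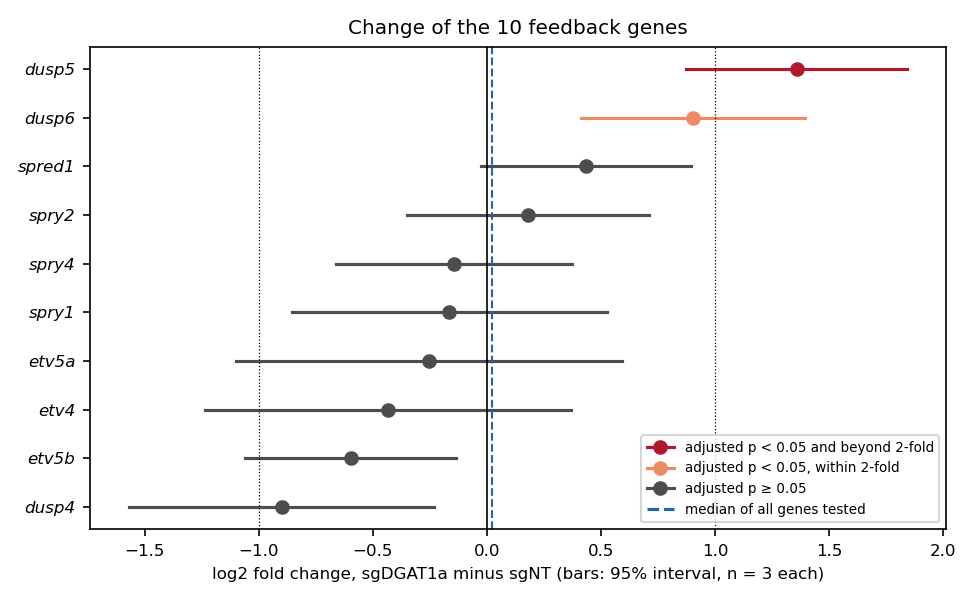
Log2 fold change of each feedback gene, sgDGAT1a minus sgNT (horizontal axis; points with 95% intervals, n = 3 libraries each), with dotted lines at 2-fold and a dashed line at the median of all genes tested, 0.02. *dusp5* lies at 1.36 and is the 1 gene called, and *dusp4* at -0.90 is at the other end with an interval that reaches -0.23.

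The Sprouty genes encode inhibitors of receptor tyrosine kinase signaling. *spry4* had 9222, 9674 and 6625 normalized counts in sgDGAT1a, against 9082, 8803 and 9976 in sgNT. *spry2* had 3936, 4087 and 4393 in sgDGAT1a, against 3140, 3176 and 4866 in sgNT. *spry1* had 253, 265 and 338 in sgDGAT1a, against 358, 378 and 236 in sgNT. The groups overlapped in each of these genes, and library 3 lay apart from libraries 1 and 2 in at least 1 group. The log2 fold changes were -0.14 for *spry4* (95% interval -0.66 to 0.37), 0.18 for *spry2* (-0.35 to 0.71) and -0.16 for *spry1* (-0.86 to 0.53). A 2-fold change in either direction lay outside these intervals.

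*spred1*, which in mammals brings the RAS-inactivating protein neurofibromin to the membrane, had 2093, 1830 and 1763 normalized counts in sgDGAT1a, against 1470, 1534 and 1212 in sgNT. The groups did not overlap, but the log2 fold change of 0.43 (95% interval -0.03 to 0.89) had a limma adjusted p of 0.177.

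The PEA3 factors *etv4*, *etv5a* and *etv5b* are known in zebrafish as targets of FGF signaling. *etv5b* had 920, 1132 and 1033 normalized counts in sgDGAT1a, against 1612, 1383 and 1671 in sgNT, with no overlap. Its log2 fold change was -0.60 (95% interval -1.06 to -0.14, limma adjusted p = 0.0834). *etv4* had 1138, 986 and 2124 in sgDGAT1a, against 2175, 2157 and 1256 in sgNT, so that library 3 went against libraries 1 and 2. *etv5a* had 1472, 1449 and 1384 in sgDGAT1a, against 1155, 1347 and 3216 in sgNT, where sgNT 3 alone was high. Neither passed (log2 fold change -0.43 and -0.25, limma adjusted p = 0.432 and 0.675). With 3 libraries a group, an exact two-sided permutation test of a single gene cannot give a p below 0.1.

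Other genes of the pathway gave the surroundings of this result, in 6 lists with 110 genes tested, of which 15 were called higher and 2 lower. Over all genes tested 8.70% were called higher and 3.31% lower, which are the shares to set beside each list below. For counts at an unadjusted limma p below 0.05, 3249 of 16969 genes were higher and 2172 lower. The count of 17 calls was 1 without sgDGAT1a 1, 0 without sgDGAT1a 2, 10 without sgDGAT1a 3, 2 without sgNT 1, 2 without sgNT 2 and 29 without sgNT 3. Calls over all genes moved as well, from 2038 to 262, 108, 1591, 406, 472 and 4225 in the same order. The lists are described by counts, with no test of a list. Of 21 other ERK target genes 6 were called higher and 1 lower, and their median log2 fold change was 0.98. The immediate early gene *ier2b* had 3947, 3731 and 4194 normalized counts in sgDGAT1a, against 769, 997 and 1585 in sgNT, a log2 fold change of 1.89 (SE 0.28, limma adjusted p = 0.00992). *fosl1a*, a subunit of the AP-1 factor, had 9491, 9537 and 7578 in sgDGAT1a, against 1688, 1765 and 4752 in sgNT (1.87). *ier2a* had 30006, 31302 and 33745 in sgDGAT1a, against 6538, 7281 and 19801 in sgNT (1.69). In each of these, sgNT 3 was the highest of the sgNT libraries. The other 3 called higher, named after their values were seen, were *phlda2* (1.37), *egr1* (1.48) and *ccnd1* (1.56), and *phlda1* was called lower (-1.03). In *phlda2* sgNT 3 was the lowest, with 9433, 11992 and 5946 normalized counts in sgNT libraries 1 to 3.

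Of 6 other MAP kinase phosphatases 0 were called by limma, with 2 higher and 0 lower at an unadjusted p below 0.05. The highest log2 fold change was in *dusp1*, an early response phosphatase that favors the stress kinases (1.31, limma adjusted p = 0.0544). It had 66558, 65792 and 43357 normalized counts in sgDGAT1a, against 18558, 17653 and 38345 in sgNT. The lowest log2 fold change was in *dusp16* (-0.14). Of 16 other inhibitors of the pathway 1 was called in each direction. *il17rd*, known in zebrafish as the FGF antagonist Sef, had 336, 199 and 274 in sgDGAT1a, against 36.1, 19.1 and 100.01 in sgNT (log2 fold change 2.65, limma adjusted p = 0.0292). *cblb*, a ubiquitin ligase that removes activated receptors, had 2799, 2784 and 2104 in sgDGAT1a, against 5735, 5228 and 5750 in sgNT (-1.13, limma adjusted p = 0.0156).

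The cascade itself showed no called gene. Of 35 RAS, RAF, MEK and ERK kinases and adaptors tested 0 were called by limma in either direction (1 higher and 3 lower at an unadjusted p below 0.05), with a median log2 fold change of -0.05. The extremes were the RAS exchange factor *sos1* (1.34, limma adjusted p = 0.191) and the RAS gene *hrasa* (-0.90, limma adjusted p = 0.109). Of 15 FGF ligands and receptors 5 were called higher and 0 lower (8 and 0 at an unadjusted p below 0.05). *fgfr2* had 552.7, 499.6 and 338.8 normalized counts in sgDGAT1a, against 5.47, 33.2 and 89.2 in sgNT. The ligand *fgf18a* had 148, 196 and 25.4 in sgDGAT1a, against 4.50, 1.16 and 16.3 in sgNT. *fgf16* had 51.1, 75.2 and 24.7 in sgDGAT1a, against 1.53 in sgNT 3, and is listed at 0 in sgNT 1 and sgNT 2. *fgf7* and *fgfr1a* were the other 2. Of 18 other ETS factors 3 were called higher and 0 lower (5 and 1 at an unadjusted p below 0.05): *elf3*, an ETS factor of epithelia, and *etv2* and *erg*, factors of the endothelium. *elf3* had 3324, 2247 and 4901 in sgDGAT1a, against 107, 146 and 1322 in sgNT. The endothelial markers had a median log2 fold change of 1.58 in the same libraries, and their part in *etv2* and *erg* was not tested.

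Of the genes just named, some were at low levels in the melanoma cells of the single-cell library and others were not. *elf3* averaged 1.01 corrected counts per TME cell and no more than 0.0155 in any melanoma state, *fgfr2* 0.200 against at most 0.00601, and *il17rd* 0.0442 against at most 0.0150. *dusp1* averaged 4.76 in TME cells against at most 0.783 in a melanoma state. *ier2b* averaged 7.07 in TME cells against 1.35 to 4.90 in the melanoma states. The TME was not above every melanoma state for *egr1* (2.11 in TME and 3.41 in stressed cells), *ier2a* (2.65 and 3.45), *fosl1a* (2.08 and 3.13) or *phlda2* (7.81 in TME and 18.1 in inflammatory cells). Going the other way, *cblb* averaged 0.165 in TME cells against 0.250 to 1.01 in the melanoma states. In the sorted libraries the keratinocyte, fibroblast and muscle markers were higher in sgDGAT1a, as given above, and their part in these differences was not tested.

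**Figure D3:**
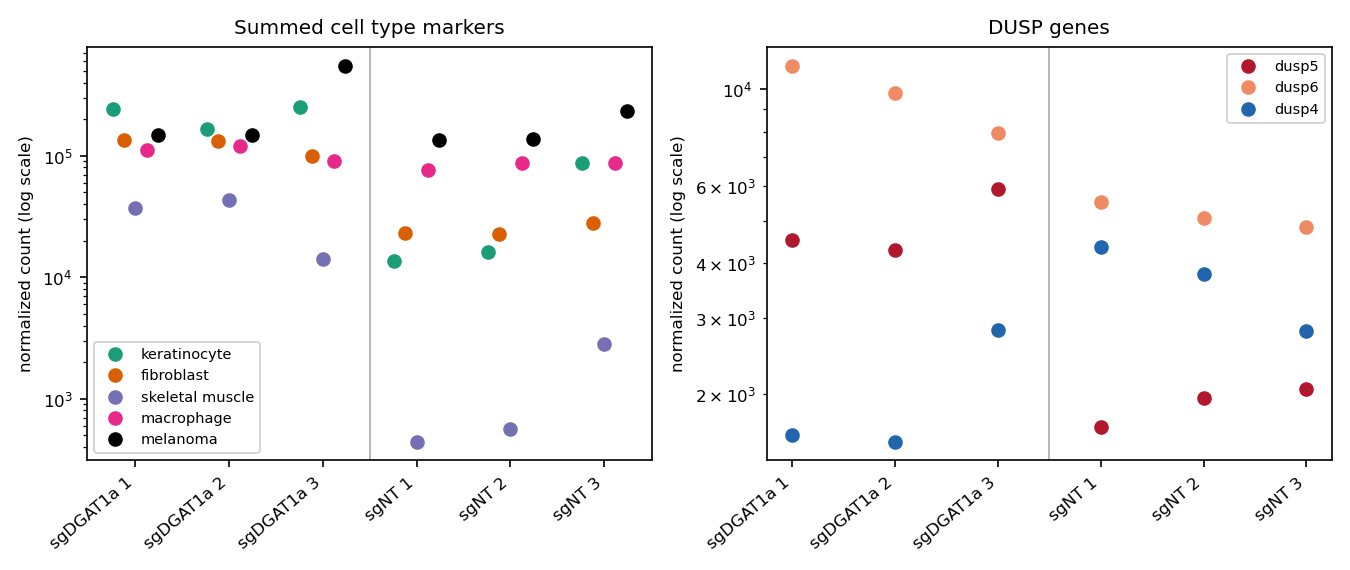
Left, summed normalized counts of marker lists per library (log axis); right, *dusp5*, *dusp6* and *dusp4* in the same libraries (log axis), with sgDGAT1a left of the line and sgNT right. The keratinocyte sum lies between 166180 and 249425 in sgDGAT1a and between 13683 and 86629 in sgNT, and *dusp5* is the DUSP gene with the widest gap between the groups.

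The second comparison asked how ERK output is spread over the melanoma states. The single-cell values are counts of unique molecular identifiers that SCTransform brought to a common depth, called corrected counts here, and levels are means per cell. There is 1 library, so no difference between states has a replicate and none was tested. The intervals given treat corrected counts as counts and cover counting error only. Ratios are the log2 ratio of a gene's share of all corrected counts in a state to its share in the other 4 melanoma states pooled. The annotation rests on the expression of all genes, these 10 included, so the values are a description.

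The labels were compared with marker genes. The melanoma markers summed to 122.6 corrected counts per cell in the melanocytic state, to between 14.2 and 28.4 in the other states, and to 3.25 in the TME. Most of the melanocytic sum was *pmela* (41.7), *mia* (34.0) and *tyrp1b* (23.0). In the same list *sox10* averaged 2.71 to 3.55 over the states (0.442 in TME) and *crestin* 3.02 to 8.20 (0.754). *mitfa* ran from 0.703 in inflammatory to 6.17 in stressed cells (0.462 in TME). The human transgene hsBRAF averaged 1.05 in melanocytic, 0.688 in stressed, 0.465 in proliferative, 0.354 in invasive, 0.0948 in inflammatory and 0.0155 in TME cells. Cas9-mCherry fell in the same order, 12.1, 5.02, 3.87, 2.06, 0.819 and 0.521. Invasive cells carried Schwann cell markers (7.17 corrected counts per cell against 0.0997 or less in each other melanoma state) and the keratin *krt4* (8.23 against 1.52 or less, with 3.43 in TME), and inflammatory cells the iridophore markers (10.9 against 4.41 or less). The 7 keratinocyte markers summed to 9.04 in invasive cells, nearly all of it *krt4*, while *krt5* was at 0.147 (27.6 in TME) and *epcam* at 0.0330 (5.18 in TME). The invasive and inflammatory labels are used as the authors' names.

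The invasive state had the lowest level of 7 of the 10 feedback genes, and the proliferative state the highest of 5. The same counts were not made over all genes, so the usual shares are not known. Summed, the 10 genes averaged 4.24 corrected counts per melanocytic cell, 3.74 per stressed, 4.59 per proliferative, 2.58 per invasive, 3.59 per inflammatory and 3.35 per TME cell. The order of these sums does not follow that of the BRAF transgene: inflammatory cells had 0.0906 times the hsBRAF level of melanocytic cells and 0.845 times their feedback gene sum. This sum too weights genes by their level and does not describe the set. *dusp5* (0.422 against 0.178), *etv5a* and *etv5b* were higher in inflammatory than in melanocytic cells. The other feedback genes were lower, *spry1* at 0.0517 against 0.193. Among cells with at least 2000 raw molecules, 2.60 of the 10 genes were above 0 in a proliferative cell and 1.60 in an invasive cell. Thinned to 7000 corrected counts, these were 2.38 and 1.59. The median cell had 15141 raw molecules in the proliferative state and 7979 in the invasive state. Thinning acts on corrected counts and does not level raw depth, whose part was not tested. Over cells of any depth, thinning left out 10 of 333 proliferative and 55 of 333 invasive cells.

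**Figure D4:**
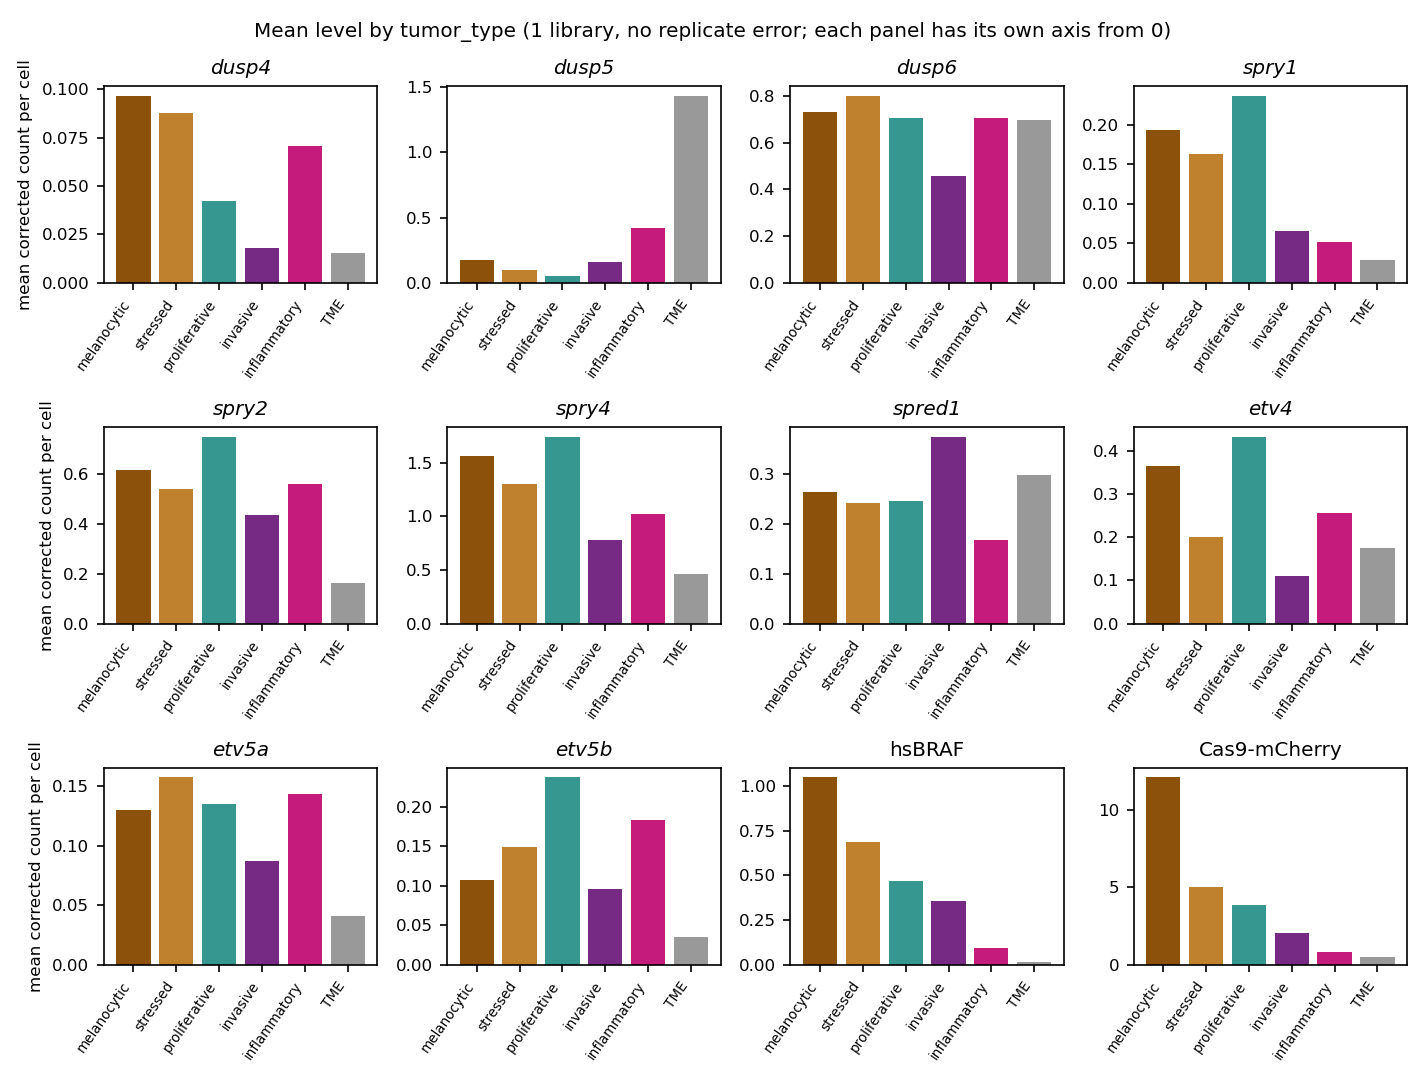
Mean corrected count per cell (vertical axes, from 0, a different scale in each panel) of each feedback gene, of hsBRAF and of Cas9-mCherry in the 5 melanoma states and the TME of the single library; bars have no replicate error. hsBRAF declines from 1.05 in melanocytic to 0.0948 in inflammatory cells, while *spry4*, *spry2* and *etv4* are highest in proliferative cells and *dusp5* in the TME.

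Changes past 2-fold were few. In the melanocytic state 0 of 10 feedback genes were past 2-fold, where 23.2% of the 11776 genes with at least 50 corrected counts in melanoma cells were. In the stressed state 1 was (12.0% of all genes), in the proliferative state 1 (16.3%), in the invasive state 3 (19.2%) and in the inflammatory state 2 (23.0%). The median log2 ratio of the 10 was 0.16 in melanocytic, -0.04 in stressed, 0.19 in proliferative, -0.68 in invasive and -0.02 in inflammatory cells, against -0.26, 0.06, 0.11, 0.04 and -0.30 over all genes. In the invasive state 1 of 10 was above 0, *spred1*, against 6235 of the 11776 genes.

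*dusp6* was the most even of the DUSP genes, at 0.729 corrected counts per melanocytic cell, 0.801 stressed, 0.706 proliferative, 0.456 invasive, 0.705 inflammatory and 0.698 TME. The invasive level was the lowest, with a log2 ratio of -0.68 (95% interval -0.92 to -0.44), and the stressed level the highest (0.23, 0.10 to 0.37), while the intervals of the melanocytic, proliferative and inflammatory ratios held 0. *dusp4* averaged 0.0967 in melanocytic, 0.0879 in stressed, 0.0420 in proliferative, 0.0180 in invasive, 0.0707 in inflammatory and 0.0155 in TME cells. Its invasive ratio of -1.998 (-3.29 to -0.91) rests on 6 corrected counts.

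*dusp5* had another pattern. It averaged 0.178 in melanocytic, 0.101 in stressed, 0.0541 in proliferative, 0.156 in invasive, 0.422 in inflammatory and 1.44 in TME cells. The inflammatory ratio was 1.78 (95% interval 1.53 to 2.04), the stressed ratio -1.21 (-1.56 to -0.87) and the proliferative ratio -1.94 (-2.68 to -1.28). The proliferative state thus held the least of *dusp5* and the most of *spry1*, *spry2*, *spry4*, *etv4* and *etv5b*. Inflammatory cells also had the highest sum of macrophage markers among the states, 3.48 corrected counts per cell against 0.581 to 1.21, with 82.9 in the TME. Nearly all of it was *cd74a* (1.78) and *cd74b* (1.60). The ratios of *marco* (-0.05), *c1qb* (-0.43) and *mfap4* (-0.39) were below 0 in inflammatory cells. Those of *c1qa* (1.07) and *c1qc* (0.96) were above 0, at 0.0155 and 0.0345 corrected counts per cell (2.34 and 5.73 in TME). *mpeg1.1* was at 0.0017 corrected counts per cell (0.845 in TME).

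**Figure D5:**
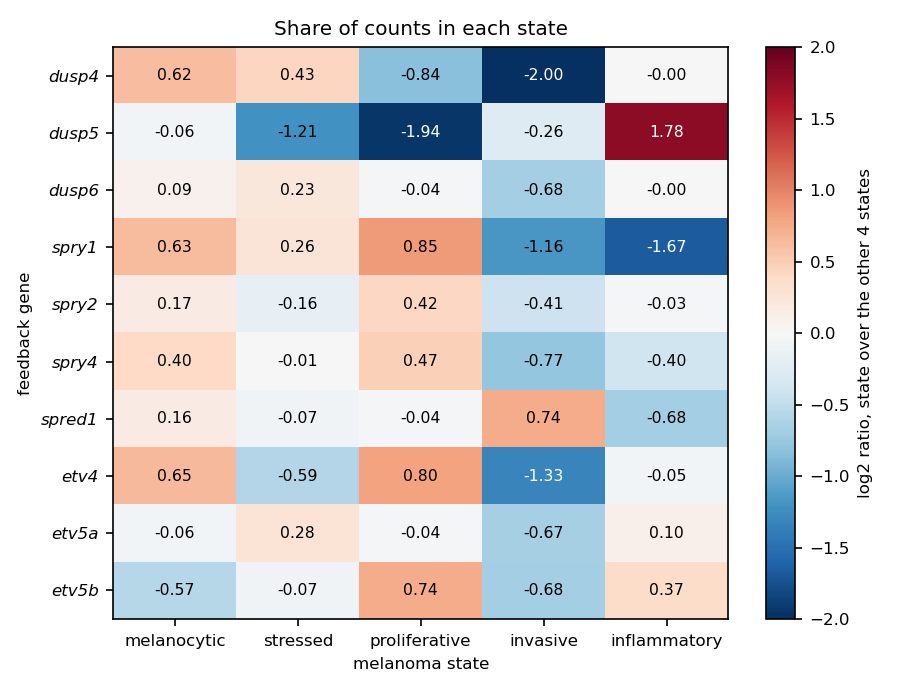
Log2 ratio (color and printed value) of each feedback gene's share of corrected counts in a melanoma state to that in the other 4 states pooled. The invasive column is below 0 for 9 of 10 genes, and the *dusp5* row runs from -1.94 in proliferative to 1.78 in inflammatory cells. Of all 11776 genes with at least 50 corrected counts in melanoma cells, 6235 were above 0 in invasive cells.

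The Sprouty genes were highest in proliferative cells. *spry4* averaged 1.566 in melanocytic, 1.304 in stressed, 1.745 in proliferative, 0.781 in invasive, 1.026 in inflammatory and 0.464 in TME cells. Its proliferative ratio was 0.47 (95% interval 0.34 to 0.60) and its invasive ratio -0.77 (-0.96 to -0.59). *spry2* averaged 0.615, 0.539, 0.751, 0.435, 0.560 and 0.162 in the same order, with ratios between -0.41 and 0.42. *spry1* averaged 0.193 in melanocytic, 0.163 in stressed, 0.237 in proliferative, 0.0661 in invasive, 0.0517 in inflammatory and 0.0287 in TME cells. It was past 2-fold in inflammatory (-1.67, -2.24 to -1.13) and in invasive cells (-1.16, -1.83 to -0.55). The invasive value falls within 2-fold after thinning to 7000 corrected counts (-0.96) or with 5 added per sum (-0.91).

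*spred1* was the exception to the low invasive state. It averaged 0.264 in melanocytic, 0.243 in stressed, 0.246 in proliferative, 0.375 in invasive, 0.167 in inflammatory and 0.298 in TME cells, with an invasive ratio of 0.74 (95% interval 0.45 to 1.02) and an inflammatory ratio of -0.68 (-1.001 to -0.36). The intervals of its melanocytic, stressed and proliferative ratios held 0.

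*etv4* averaged 0.364 in melanocytic, 0.200 in stressed, 0.432 in proliferative, 0.111 in invasive, 0.257 in inflammatory and 0.176 in TME cells, with ratios of 0.80 in proliferative (95% interval 0.53 to 1.07) and -1.33 in invasive cells (-1.84 to -0.85). *etv5b* averaged 0.107, 0.149, 0.237, 0.0961, 0.183 and 0.0349 in the same order and was also highest in proliferative cells (ratio 0.74, 0.37 to 1.09), but melanocytic cells were low in it (-0.57, -0.98 to -0.18). *etv5a* averaged 0.130, 0.157, 0.135, 0.0871, 0.143 and 0.0411, and apart from the invasive ratio of -0.67 (-1.26 to -0.13) each interval held 0.

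Between the TME and the melanoma cells the feedback genes divided. In TME cells 1 was more than 2-fold higher than in melanoma cells (18.8% of the 13906 genes with at least 50 corrected counts in all cells), 6 were more than 2-fold lower (36.9% of all genes) and 3 lay within 2-fold, with a median log2 ratio of -1.52 against -0.63 over all genes. The 6 were *spry1* (-2.22), *dusp4* (-2.10), *etv5b* (-2.03), *spry2* (-1.74), *etv5a* (-1.64) and *spry4* (-1.40), and the 1 higher was *dusp5* (3.01). Cells of at least 2000 raw molecules were then set apart by markers, a split made after the values were seen. The 467 TME cells with at least 3 macrophage markers above 0 averaged 2.59 corrected counts of *dusp5*, the 295 with keratinocyte markers 0.986 and the 223 with fibroblast markers 0.816, against 0.199 in all melanoma cells of that depth. A cell could be in more than 1 of these sets, as 70 were, and in the 251 keratinocyte cells and 172 fibroblast cells of no other set the mean was 0.940 and 0.657. *etv4* was also at 0.400 in the macrophage set, against 0.277 in the melanoma cells, and at 0.0271 in the keratinocyte set. *dusp6* was at 0.634, 0.861 and 0.825 in the macrophage, keratinocyte and fibroblast sets against 0.730 in melanoma cells. In the 51 TME cells of no marker set other than that of melanoma, *dusp5* averaged 3.02 and *dusp6* 1.47. The 166 TME cells with at least 3 melanoma markers, which may overlap with these 51, had 1.14 of *dusp5* and 0.807 of *dusp6*.

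The rest of the pathway was counted over the states in the same way. Of 83 genes of the 6 lists with at least 50 corrected counts, 22 were past 2-fold in melanocytic, 10 in stressed, 13 in proliferative, 16 in invasive and 20 in inflammatory cells, shares of 26.5%, 12.0%, 15.7%, 19.3% and 24.1% that lie near those of all genes. The 18 other ERK target genes were at a median of -0.88 on the log2 scale in proliferative cells, where 0 were past 2-fold higher and 5 lower, and at -0.97 in melanocytic cells, where 0 were higher and 9 lower. Their median was 0.57 in stressed cells, where *egr1* averaged 3.41 corrected counts, against 1.56 in the remaining states (ratio 1.09). *egr4*, a further early response factor, averaged 1.85 in inflammatory cells against 0.368 in the other 4 (2.33). In invasive cells *phlda2* led among the genes with at least 200 corrected counts, at 13.8 against 8.16 (0.79). Below that minimum, *egr2b* (4.61, 186 corrected counts) and *egr3* (3.00, 148) had higher ratios in invasive cells. *epha4b* (4.24, 70) did so in inflammatory cells. The proliferative and melanocytic states led this list with *myca* (0.46) and *epha2b* (0.62).

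Among the adaptors and kinases, the docking protein gene *gab1* averaged 2.18 in invasive cells against 0.438 in the other 4 states (ratio 2.34). The genes named here as leading a list were chosen among those with at least 200 corrected counts. *mknk2a*, a kinase downstream of ERK, led in melanocytic (1.33) and inflammatory cells (1.14). The phosphatase gene *ptpn11b* led in stressed (1.09) and *hrasb* in proliferative cells (0.82). *gab2*, with 86 corrected counts, was at 1.19 in inflammatory cells. Of the other phosphatases *dusp1* led in stressed cells (0.99), *dusp2* in melanocytic (0.19) and *dusp8a* in invasive cells (0.92), while of the 3 with at least 200 corrected counts none was above 0 in proliferative (*dusp8a*, -0.06) or inflammatory cells (*dusp2*, -0.25). *dusp16*, with 80 corrected counts, was at 0.58 in proliferative cells. Of the inhibitors *nf1b* led in melanocytic (0.93), *cblb* in stressed (0.61) and proliferative (0.50), *erf* in invasive (0.44) and *rasa1b* in inflammatory cells (0.55). With fewer counts, ratios were higher for *errfi1a* in invasive (1.64, 93 corrected counts), *rasa3* in proliferative (1.36, 56) and *cbl* in stressed cells (0.68, 148). Of the ETS factors *ets1* averaged 0.393 in invasive cells against 0.0802 in the other 4 states (2.32). *erfl3* led in stressed (1.03), *gabpa* in proliferative (0.70) and melanocytic (-0.33) and *ets1* in inflammatory cells (0.54). *etv1*, with 59 corrected counts, was higher than these leaders in proliferative (1.61) and inflammatory cells (1.43). Of the FGF genes, 2 had at least 200 corrected counts. *fgfrl1a* led in invasive (1.27), proliferative (0.06) and melanocytic (-0.04) and *fgfr1b* in stressed (1.122) and inflammatory cells (-0.22). *fgfrl1b*, with 68 corrected counts, was higher than *fgfr1b* in inflammatory cells (5.71).

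The 5 genes whose levels over the 5 states and the TME were most like the mean of the feedback genes, of 4120 candidates, were *eif3f*, *sept8a*, *si:dkey-159n16.2*, *znf1092* and *fnbp1l*, with Pearson correlations of 0.976 to 0.962 over 6 groups of 1 library. *znf1092*, for example, averaged 0.983 corrected counts per melanocytic, 1.42 per proliferative, 0.1502 per invasive and 0.0264 per TME cell.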

How the data were processed

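The members and lists were chosen with earlier results of these data known. For the sorted cells, the authors ran Salmon 1.4.0 on GRCz11 and DESeq2 1.30.1, and the deposited values are normalized counts, a signal with decimals rather than reads. Of the low values 14.0% to 65.9% per library were whole multiples of a step, so whole reads were not recovered and no count test was used. Of 20682 rows, 280 repeated identifiers were left out. limma 3.58.1 (R 4.3.3) was run on log2(normalized count + 1), with a trended prior and Benjamini-Hochberg adjustment over all genes with a mean of at least 10. P-values measure the spread between these libraries, which may be technical.

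For the single cells, the authors counted with Cell Ranger, dropped cells under 200 genes or over 30% mitochondrial reads, and corrected the UMI counts for depth (SCTransform, Seurat 4.0.2). The resulting deposited matrix of corrected counts is a score, not raw molecules (341 to 120384 raw UMIs per cell), and the correction can add counts to shallow cells. State and mitochondrial percent of each cell came from the annotation that the authors deposited, and doublets were gated out at sorting, so that those formed in droplets may remain; none were called here. 0.5 was added per sum. Intervals are exact Clopper-Pearson, 95%.

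Named were the 10 members, *dgat1a*, transgene rows, up to 3 called genes per direction of each other list (or its extremes), the largest ratio per list and state among genes with at least 200 corrected counts, and the 5 genes most alike with at least 500. EGFP (10 corrected counts in melanoma cells) is not described. Alternatives were 15 for the sorted cells (pseudocounts, filters, scalings, prior, replicate block, averaging, each library left out) and 7 for the single cells. Both procedures were tested on simulated data. Further tools were Python 3.11.15, numpy 2.4.6, pandas 2.3.3, scipy 1.17.1 and matplotlib 3.10.9.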

Additional observations from a re-analysis of the deposited data

How the results depend on the processing

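Of the feedback genes 1 was called and 2 had an adjusted p below 0.05. Called were 2 with quantile normalization (*dusp6* joined at a log2 fold change of 1.01) and 0 with libraries 1 and 2 of each group averaged, where no gene of the table was called by limma (2533 at an unadjusted p below 0.05); with 1 library left out it was 0 to 3. At an adjusted p below 0.05 there was 1 with a constant prior variance, 1 with the replicate block, 0 after averaging and 0 to 3 with a library left out. The other alternatives kept both counts. No pairing by library number was seen: deviations of same-numbered libraries from their group means correlated at -0.07, -0.05 and -0.14. With 3 libraries a group, such correlations cannot exclude a pairing. With the replicate block *dusp5* stayed called (adjusted p = 0.0463), and 482 genes were called in all, against 2038 without it. Called of all genes were also 262 without sgDGAT1a 1, 108 without sgDGAT1a 2, 406 without sgNT 1, 472 without sgNT 2 and 4225 without sgNT 3. Calls were 72.5% higher, and 60.6% with quantile normalization, which moved the median of all genes to -0.12. The sign turned, with the cause not tested, for *spry1* after averaging (0.0061), and with a library left out *spry4* ran from -0.25 to 0.026 (without sgDGAT1a 3), *etv5a* from -0.54 to 0.20 (without sgNT 3) and *dusp16* from -0.33 to 0.026 (without sgNT 3). *dgat1a* had an adjusted p of 0.0507 with a constant prior, 0.0696 with the replicate block, 0.287 after averaging and 0.0974 to 0.114 without sgDGAT1a 1, sgDGAT1a 2, sgNT 1 or sgNT 2.

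The count of genes called in the 6 other lists, 17, was 10 with quantile normalization, 6 with a constant prior, 2 with the replicate block, 0 after averaging, and 0 to 29 with a library left out. In the single cells the counts of feedback genes past 2-fold kept within 1.5 times under each alternative. Counts of the 6 lists at a minimum of 200 corrected counts, where fewer genes were counted, were 13 in melanocytic, 8 in proliferative, 8 in invasive and 13 in inflammatory cells. The read depth behind the sorted libraries is unknown, so counting error could not be given for them, and the *dusp4* ratio in invasive cells rests on 6 corrected counts.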
